A study of Mus musculus with 15 samples.

Results

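The activin, BMP and TGF-beta genes described here are 10 of the 23420 genes in an RNA-seq table of mouse melanoma grafts: Inhba, Bmp2, Bmp4, Tgfb1, Tgfb2 and Tgfb3 (ligands), Grem1 and Fst (secreted antagonists), and Id1 and Id3 (target genes). They were taken by symbol. The set was selected on measured values of these tumors, since Grem1 and Inhba were among the genes with the lowest log2 fold change in UV2 against parental tumors under anti-PD-1. The contrast of the lines under anti-PD-1 is therefore a description here, with no test for any of the 10, and Grem1 and Inhba are tested only in comparisons that use other tumors. Every tumor grew in female C57BL/6 mice aged 8 weeks from 1000000 cells per flank, either of the line D4M.3A.3 (parental) or of D3UV2 (UV2), a line with putative neoantigens induced by UVB light. The 15 libraries form 5 groups of 3, the parental line under isotype, anti-PD-1 or triple therapy and the UV2 line under isotype or anti-PD-1. Isotype is the control antibody, and anti-PD-1 is an antibody against PD-1, an inhibitory receptor of T cells. Therapy was given to the left flank tumor (days 8, 10 and 12), and harvest was on day 13. Triple therapy includes imiquimod (an agonist of the innate receptor TLR7, applied to the skin) and ablative fractional photothermolysis (a laser treatment, on days 8 and 12). The sample characteristics name anti-PD-1 as its antibody and the treatment protocol names isotype antibody, so that antibody is not settled here. The labels do not say whether the libraries of a group come from separate mice, so p-values measure the spread between these libraries, which may in part be technical.

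Ligands of the TGF-beta superfamily bind paired type I and type II receptors, which phosphorylate Smad proteins that then enter the nucleus. Activins and TGF-betas act mainly through one set of Smads and BMPs through another, and the Id genes are classic direct targets of the BMP branch. Gremlin 1, the product of Grem1, binds BMP ligands outside the cell and keeps them from their receptors, and follistatin, the product of Fst, does the same mainly to activins. In tumors these ligands come from cancer cells, fibroblasts and immune cells alike, and TGF-beta is known for restraining T cells. In bulk tumor RNA, fewer cells of a type and less RNA per cell cannot be told apart.

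Promoter sequences are given for 3 genes, Grem1 and Inhba because their levels moved together across tumors, and Tgfb2 because it was lower in all 3 UV2 anti-PD-1 tumors than in any other tumor. Each is the 250 bases before the RefSeq transcription start in GRCm38.p6, 5′ to 3′ on the gene's strand. Capitals mark matches, on either strand, to CAGAC or GGCGCC (motifs bound by Smads) or to TATAAA (the TATA box).
Grem1, chr2:113758649-113758898, minus strand: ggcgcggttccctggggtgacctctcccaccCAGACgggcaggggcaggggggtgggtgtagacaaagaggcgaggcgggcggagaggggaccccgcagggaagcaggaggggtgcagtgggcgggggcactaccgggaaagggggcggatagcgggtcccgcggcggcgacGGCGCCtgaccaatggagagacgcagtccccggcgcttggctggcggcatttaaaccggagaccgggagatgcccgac
Inhba, chr13:16011601-16011850, plus strand: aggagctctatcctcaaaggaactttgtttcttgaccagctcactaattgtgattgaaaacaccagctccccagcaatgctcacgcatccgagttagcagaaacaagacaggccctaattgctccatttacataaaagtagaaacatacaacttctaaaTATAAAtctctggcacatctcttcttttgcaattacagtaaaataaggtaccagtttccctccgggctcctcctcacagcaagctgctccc
Tgfb2, chr1:186705990-186706239, minus strand: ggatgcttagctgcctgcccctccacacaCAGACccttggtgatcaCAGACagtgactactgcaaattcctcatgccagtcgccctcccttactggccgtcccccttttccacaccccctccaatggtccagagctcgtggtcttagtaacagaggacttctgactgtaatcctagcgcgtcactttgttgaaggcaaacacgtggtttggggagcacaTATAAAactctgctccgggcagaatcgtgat
The Grem1 window is 72% G or C and holds CAGAC starting 219 bases and GGCGCC starting 78 bases before the start. The Inhba window is 43.2% G or C and holds TATAAA 91 bases before the start and neither of the other motifs. The Tgfb2 window holds CAGAC 221 and 204 bases and TATAAA 31 bases before the start. Among 32851 RefSeq promoter windows of the same length, 42.2% held CAGAC, 9.59% GGCGCC and 12.4% TATAAA, so each match is one that many promoters share. RefSeq windows were at hand for 6 of the 10 genes. The Bmp4 and Tgfb1 windows held none of the motifs, and the Id3 window, which overlaps an annotated exon and is not printed, held CAGAC 167 and 68 bases before the start. Fst, Bmp2, Id1 and Tgfb3 had no entry.

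Values are TPM, a length-corrected share of all transcripts, each column summing to 1000000, so they are levels per length relative to the rest of the library, and the read depth is unknown. Of the 23420 genes, 13592 reached 1 TPM in at least 3 libraries and were tested with limma, and a gene is said to pass when its adjusted p (Benjamini-Hochberg over all tested genes) is under 0.05. All 10 genes entered the test, but Bmp4 did so through 8 of the 9 parental libraries, since it was under 1 TPM in all 6 UV2 libraries. Some libraries differ in what tissue they hold. Parental triple therapy 1 had a summed level of 8 keratinocyte markers of 27986 TPM, against 1962 and 191 in the other triple therapy tumors and 2.29 to 4.55 in the parental isotype and anti-PD-1 tumors. Among UV2 tumors the sum was 285 TPM in anti-PD-1 3, against 2.69 and 3.06 in the other 2 of its group and 2.91 to 3.08 under isotype. Parental triple therapy 1 also had a sum of 1.08 TPM over 4 Y-linked genes, against 11.5 to 40.3 in the other parental tumors. The mice were female, so their own cells carry no Y chromosome. These 4 genes, chosen after their values were seen, were listed at 0 or summed to 0.02 in the UV2 tumors. Parental isotype 3 and UV2 isotype 3 had summed levels of 8 skeletal muscle markers of 744 and 559 TPM, against at most 15.2 in the other 4 isotype tumors; the remaining groups ran from 3.98 to 928. Melanocyte markers were low in these melanoma grafts: 8 genes summed to between 12.4 and 44.9 TPM, with Tyrp1 and Dct each at 0 in 11 of 15 libraries and Sox10 at no more than 3.89.

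**Figure D1:**
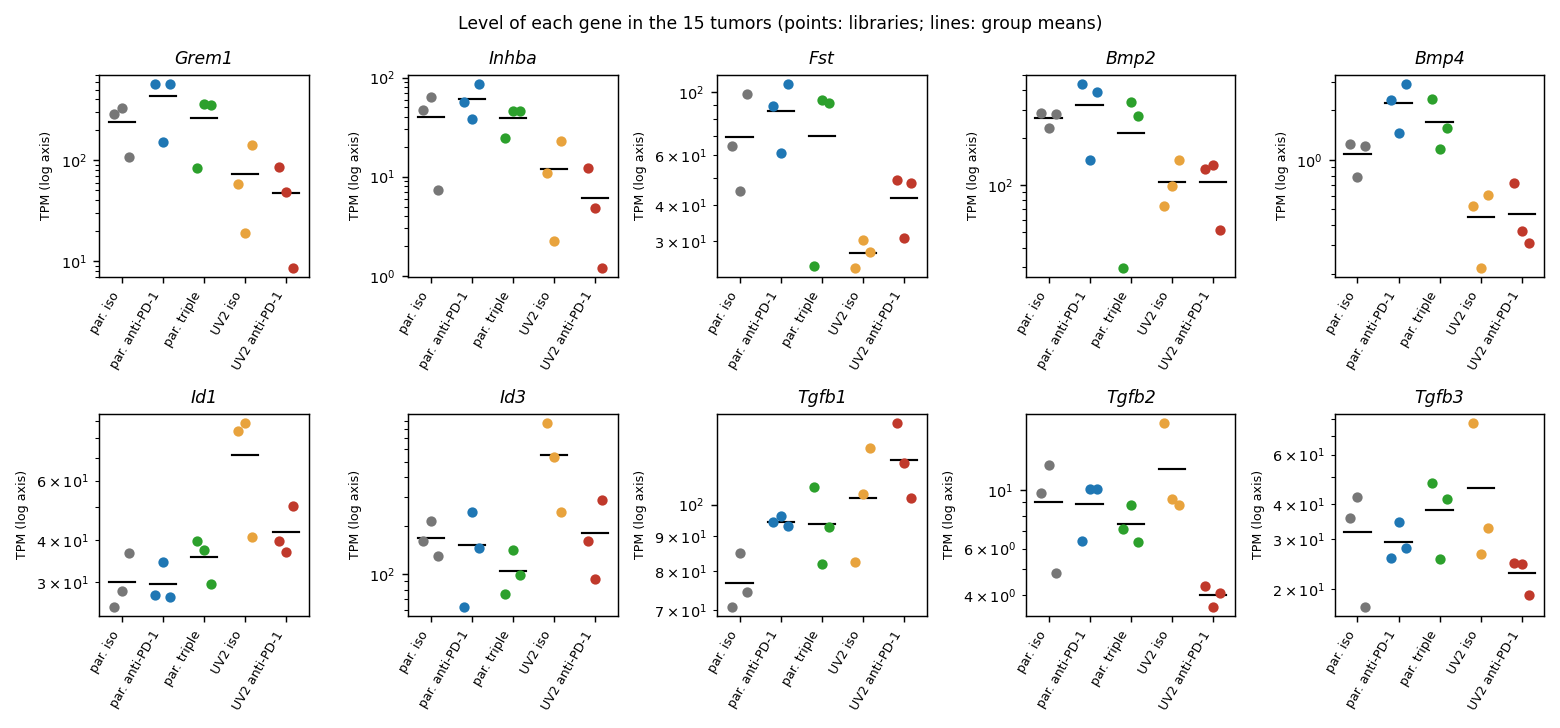
Level of each of the 10 genes (TPM, log axis) in the 15 tumors, with points for libraries and lines for group means. Grem1, Inhba, Fst, Bmp2 and Bmp4 have their 2 lowest group means in the UV2 tumors, Tgfb2 and Tgfb3 their lowest in UV2 anti-PD-1 tumors, Id1 and Id3 their highest mean in UV2 isotype tumors, and Tgfb2 reaches no more than 4.33 TPM under anti-PD-1 in UV2.

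Inhba encodes the subunit that pairs to form activin A. Its level was 47.2, 64.3 and 7.42 TPM in the parental isotype tumors, 57.2, 38.6 and 86.9 in parental anti-PD-1 and 24.6, 45.8 and 46.4 in parental triple therapy tumors. It was 10.8, 2.26 and 23.1 TPM in UV2 isotype and 12.1, 4.8 and 1.21 in UV2 anti-PD-1 tumors. The parental tumors were the higher ones, except that parental isotype 3 lay below 3 of the 6 UV2 tumors. Ordered by mean, parental anti-PD-1 (60.9 ± 24.4 SD, n = 3) was followed by parental isotype (39.6 ± 29.2), triple therapy (38.9 ± 12.4), UV2 isotype (12.1 ± 10.5) and last UV2 anti-PD-1 (6.04 ± 5.56). Only triple therapy and UV2 isotype, among neighbours in that order, had libraries that did not overlap.

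Grem1, the BMP antagonist, was more abundant, at 285, 327 and 107 TPM in parental isotype, 573, 152 and 570.3 in parental anti-PD-1 and 84, 358 and 350.4 in parental triple therapy tumors. In UV2 isotype tumors it was 58.6, 18.9 and 142 TPM and in UV2 anti-PD-1 tumors 84.8, 48.2 and 8.61. UV2 isotype 3 lay above parental isotype 3, and triple therapy 1 lay within the UV2 range, so all neighbours in the order of group means overlapped. That order was parental anti-PD-1 (432 ± 243 SD, n = 3), triple therapy (264 ± 156), parental isotype (239.8 ± 117), UV2 isotype (73.2 ± 62.9) and UV2 anti-PD-1 (47.2 ± 38.1).

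Under isotype antibody, in tumors that the choice of these genes did not use, Grem1 had a log2 fold change of -1.97 ± 0.92 (SE) in UV2 against parental, on the scale of log2(TPM + 1), and an adjusted p of 0.286. For Inhba the log2 fold change was -1.61 ± 0.85 with an adjusted p of 0.351. Neither passed. Parental isotype 3, a tumor rich in muscle transcripts, was the low parental value in both genes, below UV2 isotype 3 for Grem1 and below UV2 isotype 1 and 3 for Inhba. UV2 isotype 3, also rich in muscle transcripts, was the highest UV2 isotype value in both genes. UV2 isotype 2, with a muscle marker sum of 3.74 TPM, was the lowest. Parental isotype 3 also had a sum of 6 adipocyte markers of 806 TPM. The other parental isotype tumors had 42.45 and 23.2 TPM, and UV2 isotype tumors 28.7 to 126. Leaving out each isotype tumor in turn gave -2.65 (without UV2 isotype 3) to -1.23 (without UV2 isotype 2) for Grem1, with adjusted p from 0.167 to 0.701. For Inhba it gave -2.53 (without parental isotype 3) to -0.82 (without UV2 isotype 2), with adjusted p from 0.0919 to 0.805. With both muscle-rich tumors, parental isotype 3 and UV2 isotype 3, left out, a setting chosen after seeing the data, Grem1 gave -3.15 (adjusted p 0.0880) and Inhba -3.18 (adjusted p 0.0472) in limma. These 2 tumors held the lowest parental and the highest UV2 isotype values of both genes, so leaving them out had to widen both differences. The fit without them compares 2 tumors with 2, and its adjusted p are descriptions only. The part of muscle or adipocyte transcripts in the difference was not tested.

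Under anti-PD-1, the contrast by which they were selected, Grem1 had a log2 fold change of -3.42 ± 0.92 and Inhba -3.41 ± 0.85 in UV2 against parental, or 10.7-fold and 10.6-fold lower. They ranked 6 and 7 from the lowest among 13592 genes, next to Ddx3y (-3.71, Y-linked) on the lower side and Ptgs2 (-3.40, the inducible cyclooxygenase) and Dkk2 (-3.39, a Wnt antagonist) on the higher side. All 3 tumors of one group lay below all 3 of the other for both genes. UV2 anti-PD-1 3, with a keratinocyte sum of 285 TPM, had the lowest Grem1 and Inhba of all 15 tumors, and without it the log2 fold changes were -2.50 and -2.75. Triple therapy 3, with a keratinocyte sum of 1962 TPM, had 350.4 TPM of Grem1 and 46.4 of Inhba. Triple therapy 2 (sum 191) had 358 and 45.8, and triple therapy 1 (sum 27986) had 84 and 24.6. The part of keratinocyte transcripts was not tested. Of the 10 genes, 9 had groups that did not overlap in the contrast of lines under anti-PD-1, 7 lower and 2 higher in UV2. Without Bmp4 it was 8 of 9, where 51.2% of all tested genes did not overlap. Grem1 and Inhba are among the 7 lower and were selected by this contrast, so the count is raised by the selection and is a description only. The median of all genes was -0.21 here and 0.03 after median-of-ratios scaling, so most genes were a little lower in UV2 on the deposited scale. Anti-PD-1 against isotype gave log2 fold changes of 0.77 ± 0.92 (Grem1) and 0.98 ± 0.85 (Inhba) in parental and -0.69 ± 0.92 and -0.82 ± 0.85 in UV2 tumors, each with overlapping groups and no test, because these comparisons share tumors with the selection.

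**Figure D2:**
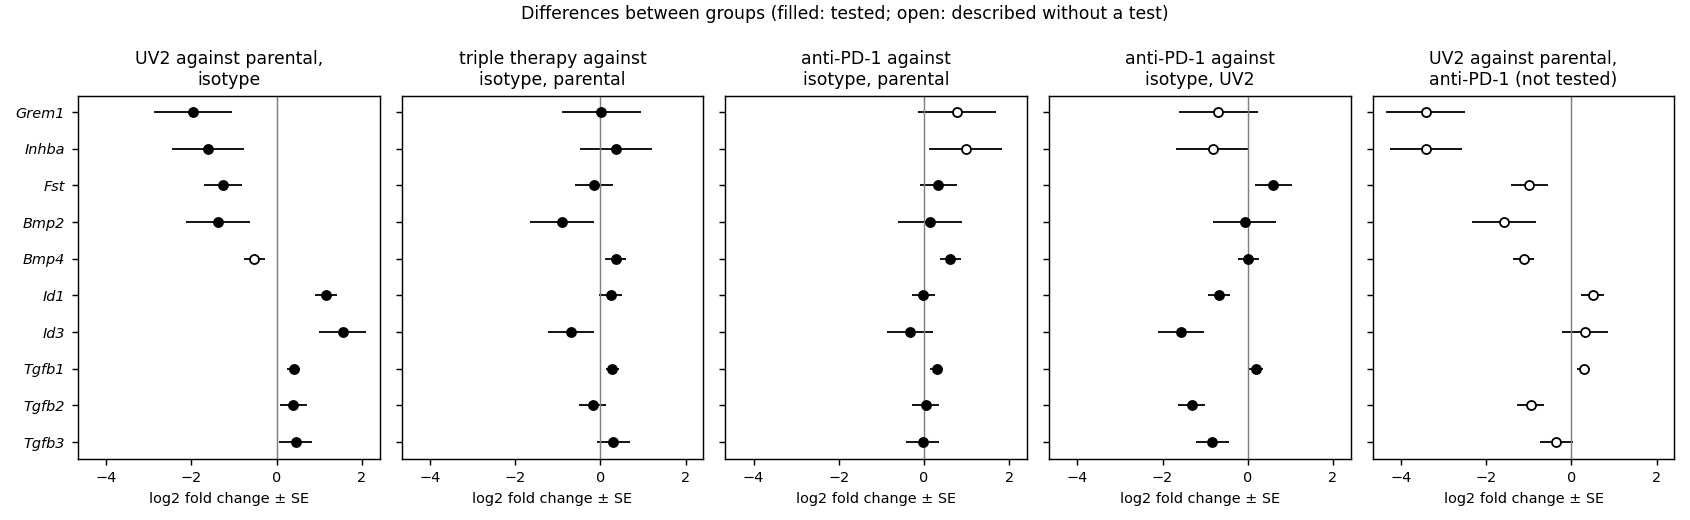
Log2 fold change of each gene with its standard error in 5 comparisons, with filled points for tested and open points for untested values. Grem1 and Inhba stand near -3.4 in the contrast that chose them and at -1.97 and -1.61 under isotype, and Id1 and Id3 are above 0 in the isotype line comparison and below 0 for anti-PD-1 against isotype in UV2 tumors.

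Bmp2, a ligand of the BMP branch, was 285, 229 and 282 TPM in parental isotype tumors and 73.5, 98.1 and 143 in UV2 isotype tumors, so these groups did not overlap. Its log2 fold change was -1.37 ± 0.74 with an adjusted p of 0.362. Parental anti-PD-1 tumors had 439, 143 and 388 TPM, triple therapy tumors 29.9, 336 and 273, and UV2 anti-PD-1 tumors 126, 134 and 52.1. The lowest of all 15 values was triple therapy 1, the tumor with the highest keratinocyte sum. Bmp4, a related BMP ligand, was near the bottom of the measured range, at 1.25, 0.78 and 1.22 TPM in parental isotype and 0.52, 0.22 and 0.61 in UV2 isotype tumors. Because Bmp4 entered the test only through parental libraries, its lower UV2 level is tied to the filter, and its log2 fold change of -0.52 ± 0.25 is given as a description, with no test. Bmp4 was 2.31, 1.46 and 2.91 TPM in parental anti-PD-1, 2.34, 1.17 and 1.57 in triple therapy and 0.72, 0.37 and 0.31 in UV2 anti-PD-1 tumors, so every UV2 tumor lay below every parental one. Gm15217, on the opposite strand, overlaps Bmp4 and is in the table, and no source used here states whether strand was used in counting.

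Fst, the activin antagonist, was 64.7, 45.1 and 98.1 TPM in parental isotype and 24.2, 30.1 and 27.3 in UV2 isotype tumors. All UV2 values lay below the parental ones, with a log2 fold change of -1.25 ± 0.44 and an adjusted p of 0.155. Fst was 89.3, 60.9 and 106.8 TPM in parental anti-PD-1, 24.4, 93.4 and 91.8 in triple therapy and 49.2, 30.6 and 47.9 in UV2 anti-PD-1 tumors. In UV2 tumors the anti-PD-1 values all lay above the isotype values, by a log2 fold change of 0.60 ± 0.44 with an adjusted p of 0.600.

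Id1 and Id3 encode inhibitors of helix-loop-helix transcription factors and are read as targets of BMP signaling. Id1 was 84.4, 88.9 and 40.8 TPM in UV2 isotype tumors and 25.4, 28.3 and 36.7 in parental isotype tumors. The groups did not overlap, the log2 fold change was 1.15 ± 0.26, and the adjusted p of 0.0533 was just over the threshold and the smallest of the 10. Leaving out each of the 6 isotype tumors in turn gave 0.96 (without UV2 isotype 2) to 1.51 (without UV2 isotype 3, the lowest UV2 value), with adjusted p from 0.243 (without parental isotype 1) to 0.0194 (without UV2 isotype 3). It passed in 2 of these 6 fits, the other being that without parental isotype 3, the highest parental isotype value (1.30, adjusted p 0.0360). Each of these 2 fits left out the value nearest the other line, so the difference had to widen. Id3 was 870, 532 and 243 TPM in UV2 isotype and 161, 214 and 129 in parental isotype tumors, again without overlap, with a log2 fold change of 1.55 ± 0.55 and an adjusted p of 0.155. The same UV2 tumor, isotype 3, had the lowest value of its group for both genes and the highest Grem1 of all UV2 tumors.

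In UV2 tumors under anti-PD-1, Id1 was 39.7, 37.0 and 50.5 TPM and Id3 161, 92.8 and 289. Against UV2 isotype tumors the log2 fold changes were -0.67 ± 0.26 for Id1 and -1.56 ± 0.55 for Id3, both with an adjusted p of 0.542 and with groups that overlapped through UV2 isotype 3. The parental tumors held Id1 between 25.4 and 39.8 TPM over all their treatments and Id3 between 62.6 and 243. The difference of the anti-PD-1 effect between the lines was -0.66 ± 0.37 for Id1 and -1.23 ± 0.77 for Id3, each with an adjusted p of 0.800.

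Tgfb1 was the most abundant of the TGF-beta genes and the steadiest of the 10, between 70.8 and 132 TPM. It was 70.8, 84.9 and 74.5 TPM in parental isotype, 82.3, 104 and 121 in UV2 isotype, 94.2, 96.2 and 93.0 in parental anti-PD-1, 106, 82.0 and 92.7 in triple therapy and 132, 115 and 102 in UV2 anti-PD-1 tumors. Under isotype, UV2 against parental gave 0.40 ± 0.15 (adjusted p 0.192) with groups that overlapped. Macrophages make Tgfb1, and the sum of 8 macrophage markers ran from 2639 to 4767 TPM in parental isotype and from 4719 to 9838 in UV2 isotype tumors, then from 9232 to 13420 in UV2 anti-PD-1 tumors; their part in the Tgfb1 level was not tested.

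Tgfb2 was the scarcest of the TGF-beta genes. It was 9.73, 12.5 and 4.85 TPM in parental isotype, 6.39, 10.1 and 10.1 in parental anti-PD-1, 7.11, 8.76 and 6.36 in triple therapy, 18.04, 9.26 and 8.82 in UV2 isotype and 4.33, 3.6 and 4.08 in UV2 anti-PD-1 tumors. The UV2 anti-PD-1 tumors were thus below all 12 others and within a narrow range of each other. Against UV2 isotype the log2 fold change was -1.32 ± 0.32, with an unadjusted p of 0.00132 and an adjusted p of 0.542. The difference of the anti-PD-1 effect between the lines was -1.35 ± 0.46 for Tgfb2, with an unadjusted p of 0.0110 and an adjusted p of 0.800. Tgfb3 was 77.7, 26.7 and 33.01 TPM in UV2 isotype and 24.7, 24.5 and 19.0 in UV2 anti-PD-1 tumors, which did not overlap, with a log2 fold change of -0.83 ± 0.39 and an adjusted p of 0.547. Its parental levels were 35.9, 42.4 and 17.3 TPM under isotype, 25.7, 34.6 and 27.9 under anti-PD-1 and 47.6, 25.6 and 41.6 under triple therapy. Ttll5 overlaps Tgfb3 on the opposite strand and is in the table.

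As shares of the summed TGF-beta level, UV2 anti-PD-1 tumors held 82.0%, 80.3% and 81.6% Tgfb1, against 46.2% to 77.1% in the other 12 tumors. The share of Tgfb2 in them was 2.69%, 2.52% and 3.25%, against 4.42% to 10.1% elsewhere. These values use the tumors of the selection and are not tested. Between UV2 and parental isotype tumors the Tgfb1 share was 64.9% ± 16.2 against 66.2% ± 9.41 (SD, n = 3 each), with an exact two-sided permutation p of 0.8. The ligand and antagonist balances showed no separation either: log2 of Fst to Inhba was 1.53 ± 1.56 in UV2 isotype and 1.17 ± 2.12 in parental isotype tumors (exact permutation p 0.8), and log2 of Grem1 to Bmp2 plus Bmp4 was -0.89 ± 1.25 and -0.30 ± 0.98 (exact permutation p 0.5). Of 10 such exact tests all had an adjusted p of 1, and with 3 against 3 none could go below 0.1.

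**Figure D3:**
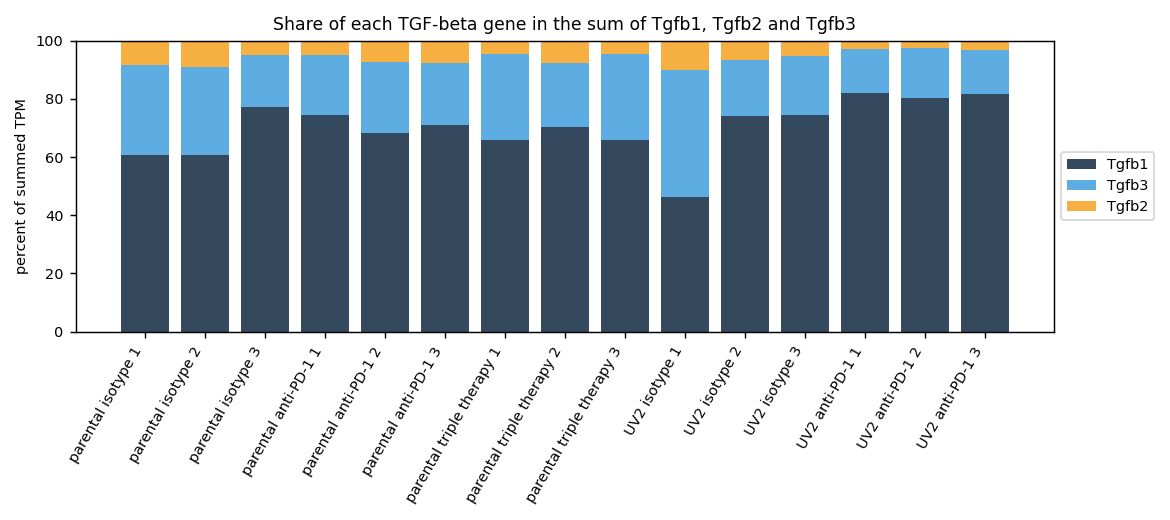
Share of Tgfb1, Tgfb2 and Tgfb3 in their summed TPM (percent, stacked bars from 0 to 100) in each of the 15 tumors. The 3 UV2 anti-PD-1 bars hold 80.3% to 82.0% Tgfb1, and UV2 isotype 1 holds the least, 46.2%.

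Counted over the members, none passed in any comparison tested with limma. In UV2 against parental under isotype, with Bmp4 left out for the reason given above, 0 of 9 passed, where 1.29% of all genes did. Of these 9, 4 (Id1, Id3, Fst and Tgfb1) had an unadjusted p under 0.05, against 17.8% of all genes, and 4 (Id1 and Id3 higher, Fst and Bmp2 lower) had groups without overlap, against 19.6%. The median log2 fold change was 0.39 over the 9 and -0.07 over all 10, and that of all genes was -0.04. Anti-PD-1 against isotype in UV2 tumors was tested for the 8 genes other than Grem1 and Inhba: 0 passed, against 0.0147% of all genes, 3 (Id1, Id3 and Tgfb2) had an unadjusted p under 0.05, against 9.16%, and Fst, Tgfb2 and Tgfb3 had groups without overlap, against 13.0%. The 8 include Bmp4, which was under 1 TPM in all 6 of these UV2 tumors.

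In parental tumors anti-PD-1 against isotype gave 0 of 8 passes (0% of all genes) and 1 unadjusted p under 0.05 (0.611% of all genes), that of Bmp4. Bmp4 had a log2 fold change of 0.61 ± 0.25 and Tgfb1 one of 0.30 ± 0.15, both with an adjusted p of 1, and these 2 genes had groups that did not overlap, against 4.27% of all genes. For the difference of the anti-PD-1 effect between the lines, 0 of 8 passed (0% of all genes) and 1 had an unadjusted p under 0.05 (2.97% of all genes), that of Tgfb2. Bmp4, under 1 TPM in all 6 UV2 tumors, is among these 8.

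Triple therapy against isotype in parental tumors gave 0 passes among the 10 (0.0221% of all genes), 0 unadjusted p under 0.05 (12.6% of all genes) and 0 genes without overlap (16.1% of all genes). The most negative log2 fold change was that of Bmp2, -0.90 ± 0.74 (adjusted p 0.634), and it rests on triple therapy 1: without that tumor it was 0.20 (adjusted p 0.999). Grem1, at 0.03 ± 0.92, and Fst, at -0.14 ± 0.44, were also pulled by that tumor, and without it were 0.71 and 0.48 (adjusted p 0.999 each). Inhba gave 0.37 ± 0.85, Id1 0.24 ± 0.26, Id3 -0.69 ± 0.55, Tgfb1 0.28 ± 0.15 and Bmp4 0.36 ± 0.25, and Tgfb2 and Tgfb3 gave -0.18 ± 0.32 and 0.31 ± 0.39. Against parental anti-PD-1 tumors, triple therapy gave 0 of 8 passes (0% of all genes) and 0 unadjusted p under 0.05 (10.4% of all genes), with Bmp2 again the most negative at -1.04 ± 0.74 (adjusted p 0.694).

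Several of the genes varied more between tumors of 1 group than most genes did. The within-group SD of log2(TPM + 1) was 1.27 for Grem1, 1.18 for Inhba and 1.03 for Bmp2, where the median gene had 0.32, and 98.5%, 98.1% and 97.1% of genes had a smaller one. Tgfb1, at 0.18, was at the other end, with 15.8% of genes below it. Between-tumor spread of this size set the standard errors of Grem1 and Inhba near 0.9.

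The genes varied together in part. Over the 15 libraries, which share 5 group means, Grem1 and Inhba had a Pearson r of 0.955 on log2(TPM + 1), and 0.889 after the group means were subtracted. After subtraction Fst and Bmp2 had 0.767, Tgfb2 and Tgfb3 0.736, Grem1 and Bmp2 0.717, and Id1 and Id3 0.591. Id1 ran opposite to Grem1 (-0.772) and to Inhba (-0.751), and Fst opposite to Tgfb3 (-0.576). These are descriptions of 15 libraries.

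**Figure D4:**
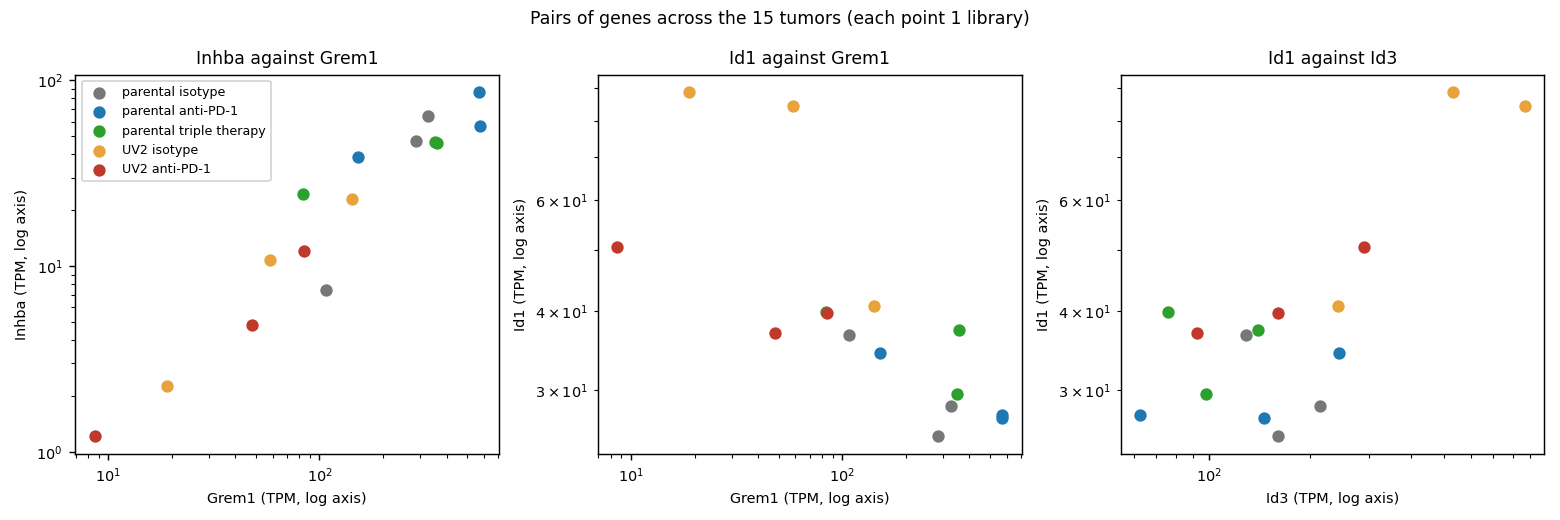
Inhba against Grem1, Id1 against Grem1 and Id1 against Id3 (TPM, log axes), each point 1 of the 15 tumors, colored by group. Inhba follows Grem1 within and across groups, and the UV2 tumor with the highest Grem1 (142 TPM) has the lowest Id1 of its group (40.8 TPM).

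Many other genes share the course of Grem1 and Inhba. The 5 genes most like Grem1 over the 15 libraries were Uhrf1bp1l (r = 0.993), Nt5dc3 (0.991), Ywhag (0.990), Lrrfip1 (0.989) and Slc41a2 (0.989), and those most like Inhba were Med13l (0.993), Rbms1 (0.992), Rnf24 (0.988), Pogk (0.987) and Myo1e (0.987). These lists changed when group means were subtracted. In the order given, the genes then ranked 1, 4, 7, 3 and 8 for Grem1 and 2, 14, 6, 61 and 20 for Inhba. After this subtraction, 663 genes (4.88% of the others tested) had an r over 0.9 with Grem1 and 1378 (10.1%) with Inhba. The corresponding counts were 76 for Bmp2 and at most 18 for each of the other 7 members. The first principal component of the deviations from the group means held 32.7% of their variance, and its r was 0.897 with Grem1, 0.921 with Inhba and -0.586 with Id1. The genes over 0.9 had a median longest transcript of 4393 bases for Grem1 (633 with a length) and 5662 for Inhba (1305 with a length), where all tested genes had 3302. RNA quality was not given in the sources used here, and its part in this shared course was not tested.

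Beyond the 10, 95 other genes of the pathway are described, and 66 of them were tested. Under isotype, 0 of the 66 passed in limma in UV2 against parental, and 17 (25.8%, against 17.8% of all genes) had an unadjusted p under 0.05. Of the 66 values 39 were negative and 27 positive, with a median of -0.12 against -0.04 for all genes. Without parental isotype 3 it was 4 that passed, without UV2 isotype 3 it was 1, and without both, the setting chosen after seeing the data, it was 6. In the other comparisons with isotype, in that of triple therapy with anti-PD-1, and in the difference between lines, 0 of the 66 passed in limma. At an unadjusted p under 0.05 they numbered 13 for triple therapy against isotype (19.7%, against 12.6% of all genes) and 18 for triple therapy against anti-PD-1 (27.3%, against 10.4%). For anti-PD-1 against isotype they numbered 0 in parental tumors (against 0.611% of all genes) and 9 in UV2 tumors (13.6%, against 9.16%), and for the difference 6 (9.09%, against 2.97%).

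Inhbb, the other common activin subunit gene, was 5.98, 7.42 and 22.4 TPM in UV2 and 48.1, 62.5 and 24.3 in parental isotype tumors, a log2 fold change of -1.95 ± 0.54 (adjusted p 0.0883) that did not pass. Gdf11, another ligand, had -1.28 ± 0.56 (adjusted p 0.250). Thbs1, a matrix protein that can activate latent TGF-beta, had -1.30 ± 0.48 (adjusted p 0.176), Tgif1, a Smad corepressor, -0.97 ± 0.24 (adjusted p 0.0686), and Twsg1, a BMP-binding protein, -0.81 ± 0.33 (adjusted p 0.211). Among BMP targets Id2 had 0.36 ± 0.15 (adjusted p 0.221) and Msx1 -0.01 ± 0.56. Furin, a protease that cleaves the ligand precursors, had -0.42 ± 0.31. The most abundant receptor genes were nearer 0, with Eng, a coreceptor, at -0.18 ± 0.28 and Tgfbr2, the type II receptor of TGF-beta, at 0.26 ± 0.42. Also near 0 were Fstl1, a follistatin-like gene (0.09 ± 0.31), Ski, a Smad corepressor (-0.000756 ± 0.304), and the TGF-beta targets Col1a1 (0.02 ± 0.82) and Tgfbi (-0.07 ± 0.18).

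Under anti-PD-1, 26 of the 66 passed in UV2 against parental, 7 higher and 19 lower, where 26.4% of all genes passed, 9.31% higher and 17.1% lower. The lists overlap in a few genes and were drawn up with results of this contrast known. The counts and limma adjusted p given here and in the next paragraph are therefore descriptions, not independent tests. In both paragraphs, fell and rose are used for genes that passed lower or higher. Of 12 Smads and regulators 7 fell, with Tgif1 at -1.02 ± 0.24 (adjusted p 0.0193), Smad1 and Smad5, which carry BMP signals, at -0.68 ± 0.16 (0.0193) and -1.03 ± 0.25 (0.0209), and Smurf1, a ubiquitin ligase for them, at -1.32 ± 0.37 (0.0274). Of 10 latency and activation genes 5 fell, Itgav (an integrin chain, -1.17 ± 0.30, adjusted p 0.0220), Itgb8 and Ltbp4 among them. Itgb8 was near the floor, at 0.71, 0.03 and 0.04 TPM in UV2 and 1.93, 1.6 and 3.63 in parental anti-PD-1 tumors. It entered the test mainly through parental libraries, so its fall is tied to the filter, as with Bmp4. Lrrc33, which tethers latent TGF-beta on myeloid cells, rose by 1.27 ± 0.31 (adjusted p 0.0209). Among 12 receptors Bmpr1a, Eng and Acvr1 fell and Acvrl1 rose. Passing or not, 11 of 12 Smads and regulators, 9 of 10 latency and activation genes and 8 of 12 receptors were below 0. So were 6 of 9 other antagonists, 5 of 10 other ligands, 2 of 7 BMP targets and 6 of 11 TGF-beta targets. The median of all genes was -0.21.

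Of 9 other antagonists Twsg1 fell, by 1.44 ± 0.33 (adjusted p 0.0166), as did Chrdl1, which encodes a BMP-binding protein, by 1.64 ± 0.55 (adjusted p 0.0455). Of 10 other ligands Gdf11 and Lefty1 fell and Gdf3 rose. Among 7 BMP targets Id2 rose by 0.91 ± 0.15 (193, 178 and 225 TPM against 101, 98.2 and 116, adjusted p 0.00957) and Smad7, an inhibitory Smad, fell by 0.84 ± 0.27 (adjusted p 0.0420). Among 11 TGF-beta targets 3 rose, Ctgf by 1.56 ± 0.33, Tagln by 1.82 ± 0.50 and the matrix gene Postn by 1.68 ± 0.55, and Smad7 was the 1 that fell. Beside them, of 10 fibroblast markers in this contrast 7 were above 0, 2 passed higher and 1 lower, with a median log2 fold change of 0.66. Their sums ran from 2861 to 11937 TPM in UV2 and from 3047 to 8592 in parental anti-PD-1 tumors, and their part in these targets was not tested. The pathway counts depend on single tumors: without parental anti-PD-1 3 or UV2 anti-PD-1 3, 0 of the 66 and 9 genes in all passed, without parental anti-PD-1 1 or 2 it was 8 and 16 of the 66, and without UV2 anti-PD-1 2 it was 8. In the same contrast all 8 T cell markers and all 8 macrophage markers had a log2 fold change above 0 in UV2. Of these, 7 T cell and 5 macrophage markers passed, where 9.31% of all genes passed higher. T cell sums were 337 to 467 TPM in UV2 against 37.0 to 109 in parental anti-PD-1 tumors. The part of these cells in the pathway counts was not tested.

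**Figure D5:**
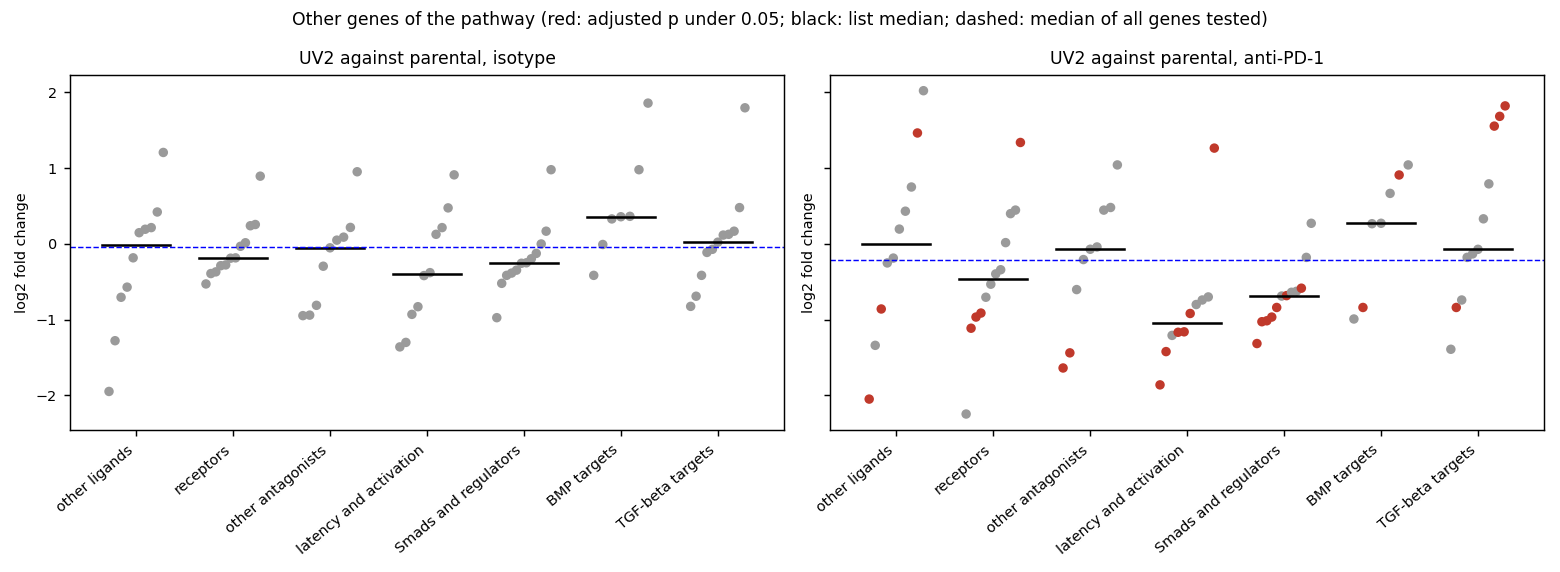
Log2 fold change of the 66 other pathway genes by list, in UV2 against parental tumors under isotype and under anti-PD-1, with red for adjusted p under 0.05, black lines for list medians and a dashed line for the median of all tested genes. Under isotype no point is red, and under anti-PD-1 the latency and activation list (median -1.04) and the Smads and regulators (median -0.69) lie lowest.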

How the data were processed

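Bulk RNA of 15 grafts was measured. The deposited values are gene TPM; Bowtie2 and RSEM, with the builds mm10 and GRCm38, are named per the submitters' processing notes, without versions. The authors' read counts were not used here, so depth is unknown. Every column was matched to a sample by its label (0 unused columns). Groups follow the labels. TPM were transformed to log2(TPM + 1) and genes with 1 TPM in at least 3 libraries kept. One limma 3.58.1 fit (R 4.3.3; a coefficient per group, 10 residual degrees of freedom, trend and robust moderation) gave log2 fold changes, standard errors and Benjamini-Hochberg adjusted p; the same code was tested on simulated data. Shares and balances were tested by exact two-sided permutation (scipy 1.17.1). Positions and transcript lengths come from GENCODE M21 (GRCm38) and promoters from RefSeq (GRCm38.p6). A few listed pathway genes are not reported here. Members and gene lists were chosen with earlier results of these data known. Named pathway genes are, per list and comparison, up to 4 that passed with the smallest p, otherwise the 2 of highest mean TPM. Alternatives were other pseudocounts, filters and scalings, the compared groups alone, a replicate block, library weights and leaving out each library.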

Additional observations from a re-analysis of the deposited data

How the results depend on the processing

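In UV2 against parental under isotype, 0 members passed, and other settings gave 1 with a TPM minimum of 5 (Id1, adjusted p 0.04999), 8 with library weights and 2 with both isotype tumors rich in muscle transcripts left out (Id1, adjusted p 0.0122, and Inhba, 0.0472; chosen after seeing the data). For Inhba the 2 muscle-rich tumors held the lowest parental and highest UV2 isotype values, and for Id1 the highest parental and lowest UV2. Leaving both out had to widen these differences. Leaving out 1 library gave 0 to 1. With library weights, members that passed numbered 6 (triple therapy against isotype), 2 (anti-PD-1 in parental), 4 (anti-PD-1 in UV2), 3 (triple therapy against anti-PD-1) and 3 (difference between lines), but the weight estimation stopped before it converged and gave 1 library a weight of 73.8, so these counts are not relied on. Without each library in turn these 5 comparisons gave 0 to 0.

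Genes passing in all, 176 in the isotype line comparison, numbered 82 with no filter, 21 with the compared groups alone, 528 without the muscle-rich pair, 3704 with library weights and 3 to 458 without 1 library. For triple therapy against isotype, 3 became 5 with a pseudocount of 0.1, 0 to 257 without 1 library and 7576 with weights. In the contrast of lines under anti-PD-1, 3586 became 9 to 4074 without 1 library and 9262 with weights. Triple therapy against isotype gave 0 with no filter, either other scaling, the compared groups alone or the block, and against anti-PD-1 it gave 4 with a pseudocount of 0.1. Anti-PD-1 against isotype in UV2, with 2, gave 0 to 8 in settings other than weights, and the difference between lines 0 to 1. Weights gave 412, 2911, 4527 and 1303 in the other 4 comparisons, and leaving out 1 library 0 to 195 for triple therapy against anti-PD-1.

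The replicate numbers gave no sign of pairing the libraries, though correlations cannot exclude a pairing. Over 30 same-numbered pairs the median correlation of deviations was -0.08, and 10 were over 0.1. Over 60 pairs of other numbers the median was 0.04, and 25 were over 0.1. With a replicate block 0 members passed in each tested comparison, while the genes passing in all numbered 37 (isotype line comparison) and 2526 (lines under anti-PD-1).

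Some signs turned. In triple therapy against isotype, Grem1 was -0.11 (median-of-ratios), -0.0334 (quantile) and -0.47 (without the muscle-rich pair), Inhba -0.00103 (weights) and -0.55 (without the pair), Fst 0.51 (weights) and 0.14 (without the pair), and Bmp4 -0.11 (quantile). In anti-PD-1 against isotype in UV2, Bmp2 was 0.0552 (median-of-ratios), 0.43 (weights) and 0.18 (without the pair), and Bmp4 -0.0889 (quantile) and -0.11 (weights). Without 1 library, Tgfb3 ran from -0.00514 to 0.75 (isotype line comparison). In triple therapy against isotype Grem1 ran from -0.47 to 0.71, Inhba from -0.55 to 0.93, Fst from -0.46 to 0.48 and Bmp2 from -1.53 to 0.20. Id3 ran from -0.77 to 0.20 (anti-PD-1 against isotype in parental). Bmp2 ran from -0.31 to 0.36 and Bmp4 from -0.10 to 0.10 (anti-PD-1 against isotype in UV2), and Bmp2 from -1.66 to 0.0609 (triple therapy against anti-PD-1).

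Without 1 library the isotype line differences ran from -0.50 to 1.56 (log2 Fst to Inhba), -1.14 to 0.12 (log2 Grem1 to Bmp2 plus Bmp4), -5.98 to 8.07 (percentage points of Tgfb1), -1.41 to 0.95 (Tgfb2) and -6.66 to 5.61 (Tgfb3). Those of triple therapy ran from -1.34 to 0.69, 0.35 to 1.29, -1.53 to 6.64, -3.15 to -1.20 and -3.50 to 3.26. The causes were not tested.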
